A study of Homo sapiens with 4 samples.

Results

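Imprinted genes are described here in H9, a long-established human embryonic stem cell line kept in the primed state, with and without repression of the long non-coding RNA gene SNHG26. The genes were chosen by name: PEG10, PEG3, MEST, MEG3, H19, NNAT, NDN, GNAS and SNRPN, and of these the ones listed with a value above 0. Of the 9 names, 6 met that rule (SNRPN, MEST, NDN, GNAS, PEG10 and NNAT), among 16174 listed genes of which 13840 had a value. PEG3 and MEG3 were listed at 0 in every library, and H19 is not analysed here.

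All cells carried a transposon with a doxycycline-inducible dCas9-BFP-KRAB, a nuclease-dead Cas9 joined to a repressor domain, and had been selected with puromycin, with no cloning step described. One arm carried 4 pooled guides against SNHG26 and the other carried control guides without a target. Both arms received doxycycline, and poly(A) RNA was taken after 2 or 3 days, copied to cDNA, amplified and sequenced as long nanopore reads. Each arm therefore has 2 libraries, 1 per day, so a spread within an arm includes any effect of the day, and nothing in the labels names separate cultures behind them. Expression is given in TPM, a relative unit in which reads are set against a gene's length and each library is brought to the same total.

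An imprinted gene is expressed mainly from the copy inherited from 1 parent. This follows from DNA methylation, laid down in the egg or the sperm, that marks 1 of the copies at a control region. The mark is kept through early development by KRAB zinc finger proteins such as ZFP57, with TRIM28 and the maintenance methyltransferase DNMT1. Human pluripotent cells in long culture are known to lose or gain such marks at some of these loci. The deposited table gives 1 level per gene and does not separate the parental copies, so nothing below speaks to which copy was read. In RNA from many cells, fewer expressing cells and less RNA per cell cannot be told apart.

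RefSeq promoter windows (build GRCh38.p14, from 250 bases before to 50 after a start) were matched by symbol for 6 of the 9 names, in 20 windows. The 3 below belong to members with a value in every library. They are shown because methylation at CG pairs carries the imprint, and each is the window with the most CG pairs among that gene's starts. GNAS also had a value in every library and matched windows, but its windows are not printed. Capitals mark the CG pairs. The SNRPN window (chr15:24954737-24955036, plus strand) ends 50 bases into the start that the table also lists for SNURF, at 24954987. The MEST window is chr7:130491835-130492134 on the plus strand, around a start inside the listed gene, and the NDN window is chr15:23687256-23687555 on the minus strand.
SNRPN: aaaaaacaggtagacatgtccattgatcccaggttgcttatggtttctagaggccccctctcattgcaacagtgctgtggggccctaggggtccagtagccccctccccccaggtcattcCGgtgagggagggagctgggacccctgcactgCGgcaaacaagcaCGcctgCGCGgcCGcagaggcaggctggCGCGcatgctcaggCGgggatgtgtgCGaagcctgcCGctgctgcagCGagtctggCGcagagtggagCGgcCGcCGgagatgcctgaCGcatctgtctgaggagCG
MEST: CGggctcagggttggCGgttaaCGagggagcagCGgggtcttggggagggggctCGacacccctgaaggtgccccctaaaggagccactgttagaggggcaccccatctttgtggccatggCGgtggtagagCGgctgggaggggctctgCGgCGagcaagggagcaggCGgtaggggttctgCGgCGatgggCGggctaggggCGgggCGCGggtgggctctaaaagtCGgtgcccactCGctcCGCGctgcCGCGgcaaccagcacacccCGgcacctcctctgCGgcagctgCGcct
NDN: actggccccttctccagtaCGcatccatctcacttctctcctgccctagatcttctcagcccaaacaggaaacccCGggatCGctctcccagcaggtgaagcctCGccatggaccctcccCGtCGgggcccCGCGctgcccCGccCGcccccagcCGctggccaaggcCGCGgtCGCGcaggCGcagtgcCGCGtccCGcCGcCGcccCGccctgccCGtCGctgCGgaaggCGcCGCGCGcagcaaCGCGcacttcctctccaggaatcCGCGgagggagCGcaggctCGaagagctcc

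These windows held 18 CG pairs for SNRPN, 25 for MEST and 35 for NDN, against a median of 14 over 35116 RefSeq windows of 300 bases. As many or more were found in 44.5%, 32.0% and 14.1% of all windows, so CG content alone does not set the SNRPN start apart. Other starts of the same genes held from 2 to 11 pairs for SNRPN and from 13 to 22 for MEST, and the 6 starts of GNAS held from 10 to 43. The letters TGCCGC, the motif read by ZFP57, were searched on both strands. The motif holds a CG pair itself. It occurred in the printed windows 2 times for SNRPN, 3 times for MEST and 1 time for NDN. The GNAS window with 43 pairs, which is not printed, held the motif 0 times. Of the 16 windows of genes listed above 0, 8 held it, against 16.7% of all windows, but several of these windows overlap and share sequence. A match is a run of letters, and methylation was not measured.

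**Figure D1:**
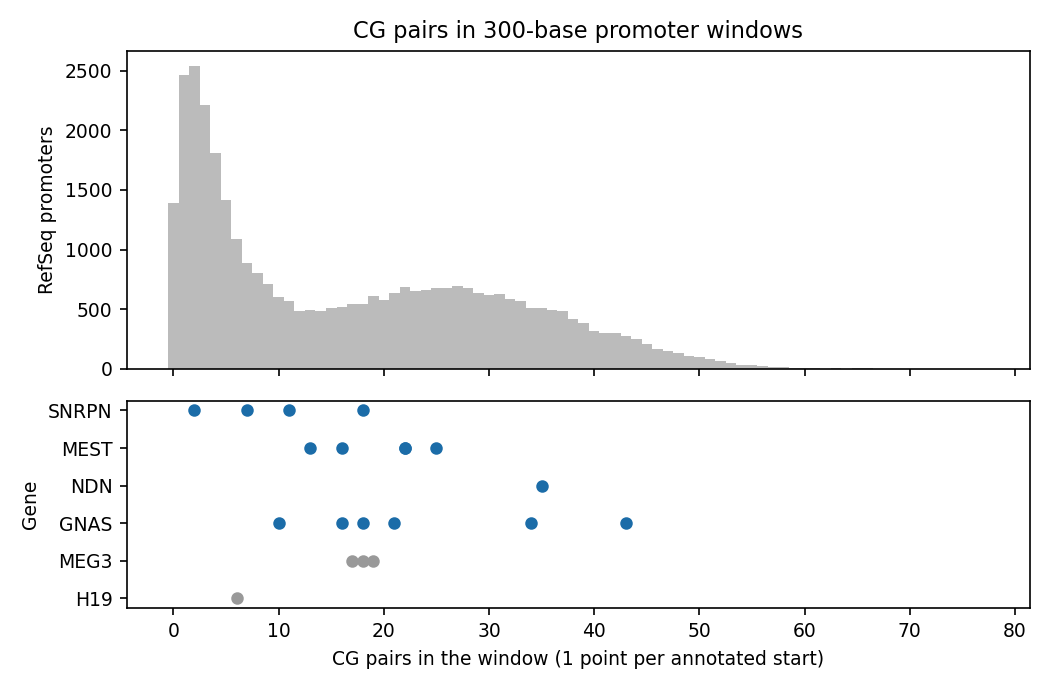
The upper panel counts RefSeq promoter windows (y axis) by their number of CG pairs (x axis), and each point in the lower panel is 1 annotated start of an imprinted gene (2 MEST starts share the value 22). Blue marks genes listed above 0 and grey marks MEG3, listed at 0, and H19, not analysed here; GNAS holds the window with the most pairs of those shown, at 43.

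Most markers of pluripotent cells had a value. Of 9 pluripotency markers 8 were listed and 7 had a value, and their summed level ran from 1639 to 1881 TPM, with ZIC2 listed at 0. Most of that sum was POU5F1, at 1050 to 1212 TPM. Of 6 markers of the naive state 4 were listed, all 4 had a value, and their sum ran from 10.4 to 13.8 TPM. Both listed amnion markers (GABRP and ISL1) were at 0, the mesendoderm list reached 1.98 TPM in 1 library and was 0 in the others, and the neural list, almost all of it TUBB3, ran from 41.9 to 56.8 TPM. The target, SNHG26, was listed at 0 and 0.933 TPM with its guides and at 2.98 and 4.03 TPM with control guides, lower in both libraries but not past the threshold (limma adjusted p = 0.935). Between 10603 and 11162 genes had a value per library. A single read on a gene of 10 kb counted for 0.653 to 0.803 TPM, and the libraries held at most 947338 to 1220265 reads.

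SNRPN encodes SmN, a core protein of spliceosomal particles, and lies in the Prader-Willi region of chromosome 15, where it is transcribed from the paternal copy. It is listed on the plus strand from 24823637 to 24978723. It was the highest of the imprinted genes at 153.7 and 176.1 TPM with the SNHG26 guides on day 2 and day 3, and at 152.4 and 162.1 TPM with control guides. The 4 values lay within 1.16-fold of each other and the arms overlapped. The gene ranked 552 of 13840 by mean TPM. With the median span of its 12 GENCODE transcripts the values stand for about 1344 to 1910 reads, and on the shortest for 406 to 577.

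The level of SNRPN cannot be separated fully from that of 2 genes on the same strand. SNURF, a small reading frame on the same bicistronic RNA, lies inside SNRPN over 22864 bases and was listed at 13.5 and 12.3 TPM with the SNHG26 guides and at 10.5 and 9.24 TPM with control guides. SNHG14, the long host transcript of small nucleolar RNAs downstream, overlaps its end by 141 bases. Adding SNURF to SNRPN left the change with the guides at 0.09 on the log2 scale, against 0.07 without it.

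NDN, also paternally expressed on chromosome 15, encodes necdin, a MAGE family protein known from neurons as a suppressor of cell division. It has no introns and is listed on the minus strand from 23685400 to 23687305, a span on which its values came out as whole reads. With the SNHG26 guides there were 5 reads on day 2 and 8 on day 3, worth 19.1 and 27.4 TPM. With control guides there were 4 and 4 reads, worth 16.9 and 14.1 TPM. Both values of the SNHG26 arm stood above both of the control arm, but exact 95% Poisson intervals, which cover counting error only, ran from 6.21 to 44.6 TPM for the lower of the SNHG26 pair and from 4.59 to 43.2 TPM for the higher control value. At this depth a difference of the size seen could not be told from counting error.

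MEST, the mesoderm specific transcript, is a paternally expressed gene for a protein with an alpha/beta hydrolase fold and is listed on chromosome 7 from 130486171 to 130506465. It stood at 26.9 and 33.0 TPM with the SNHG26 guides and at 31.6 and 25.6 TPM with control guides. The order of the days was opposite in the arms, and the arms overlapped. The full span allows at most 74.8 to 102.4 reads. MESTIT1, an antisense RNA that overlaps MEST over 4863 bases, was listed at 0 throughout.

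PEG10, a paternally expressed gene derived from a retrotransposon and needed for the placenta in mice, lies further up chromosome 7, from 94656325 to 94669695. Its values were 8.21 and 5.39 TPM with the SNHG26 guides and 11.7 and 6.98 TPM with control guides. Day 3 was below day 2 in each arm, and the arms overlapped. At most 15.1, 11.0, 19.5 and 13.9 reads lie behind these values.

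GNAS encodes the alpha subunit of the stimulatory G protein. Its locus on chromosome 20 (58839718 to 58911192) holds maternal, paternal and biallelic transcripts under 1 symbol, so the listed level mixes them. The values were 13.4 and 18.0 TPM with the SNHG26 guides and 9.56 and 21.6 TPM with control guides. Both day 3 values stood above both day 2 values, and the control arm spanned the SNHG26 arm. The full span allows at most 131.5, 197.3, 85.1 and 229.9 reads in that order, and far fewer if short transcripts among the 58 annotated by GENCODE gave them.

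NNAT, neuronatin, is a paternally expressed gene of neurons and endocrine cells that sits inside an intron of BLCAP on chromosome 20 (37521206 to 37523690). It was listed at 5.97 TPM in the SNHG26 library of day 2 and at 0 in the other 3 libraries. That value equals 2 reads on a span of 2441 bases, the span of the GENCODE transcript NNAT-205, and no other annotated span of the gene gave a whole number within 0.001 read. A count of 0 allows up to 7.88 TPM in the SNHG26 library of day 3, and up to 9.70 and 8.11 TPM in the control libraries, all above the 1 value seen. BLCAP, on the opposite strand over the whole of NNAT, stood at 14.6 to 25.4 TPM, and no source states whether counting used strand.

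PEG3, a zinc finger gene of chromosome 19, and MEG3, the maternally expressed long RNA of the DLK1 and DIO3 region on chromosome 14, were listed at 0 in all 4 libraries. On the full gene span that allows up to 0.639 to 0.786 TPM for PEG3 and 0.239 to 0.295 TPM for MEG3, counting error only. On the median transcript span the limits were 0.706 to 0.868 TPM and 0.666 to 0.819 TPM.

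Ordered by mean over the 4 libraries, the genes stood at 161.1 ± 10.9 TPM for SNRPN, 29.2 ± 3.57 for MEST, 19.4 ± 5.74 for NDN, 15.7 ± 5.27 for GNAS, 8.08 ± 2.69 for PEG10 and 1.49 ± 2.99 for NNAT (SD, n = 4 libraries of both arms and days). Only SNRPN was clear of its neighbour, since its lowest value was above the highest of MEST. Each later pair of neighbours had overlapping ranges, although MEST was above NDN, and PEG10 above NNAT, in each of the 4 libraries. These levels divide by genomic span with introns, so they place the intronless NDN high against SNRPN for the same number of reads. The genes closest to each member over log2(TPM + 1) in the 4 libraries were LAMTOR4 for SNRPN (Euclidean distance 0.11), ATXN7L3B for MEST (0.14), ITPA for NDN (0.05), RMI2 for GNAS (0.22) and XPOT for PEG10 (0.22). With 4 values each, this states only that the levels are close.

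**Figure D2:**
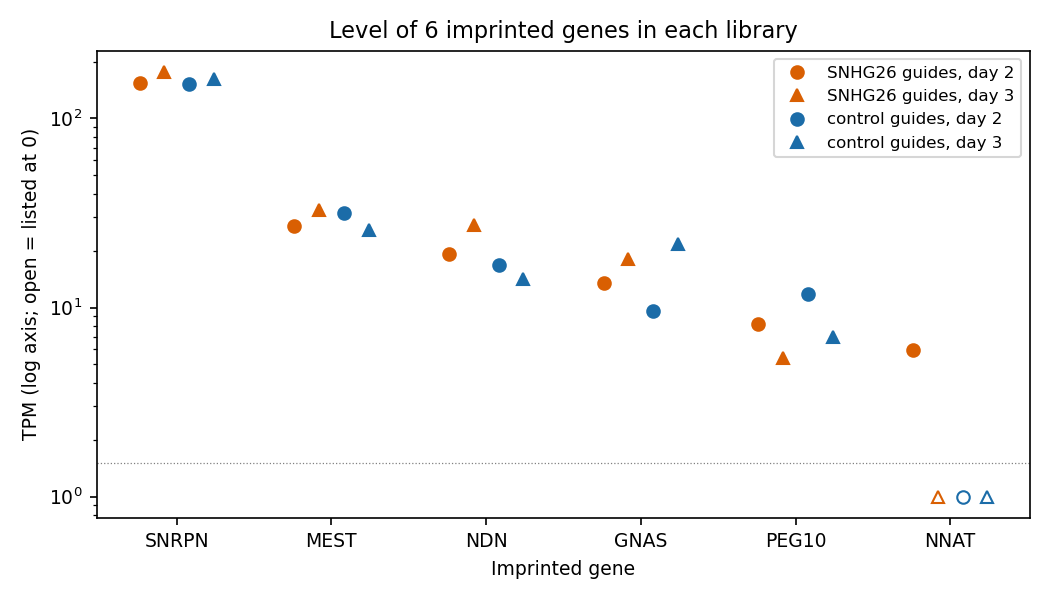
TPM on a log axis for each imprinted gene with a value, 1 point per library, orange for the SNHG26 guides and blue for control guides, circles for day 2 and triangles for day 3; open points below the dotted line are listed at 0. SNRPN sits at 152.4 to 176.1 TPM, far above the others, and NNAT has a value in 1 library.

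The change with the SNHG26 guides asks whether repressing SNHG26 moved the imprinted genes. None of the 6 passed the limma test on log2(TPM + 1) at an adjusted p of 0.05, and 0 had an unadjusted p under 0.05. Over all 8274 genes tested the same test called 0%, and 4.07% had an unadjusted p under 0.05. All 6 were tested since each had a mean of at least 1 TPM, but NNAT reached that through a single library. Their median difference was 0.08 (SNHG26 minus control guides), beside 0.04 over all genes tested. The arms did not overlap for 1 of the 6, NDN, against 29.2% of all genes tested. The sign was the same on both days for 3 of the 6 (SNRPN, NDN and PEG10), against 46.5%.

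SNRPN differed by 0.07 (SE 0.18, 95% interval -0.44 to 0.57, limma adjusted p = 0.998), with 0.01 on day 2 and 0.12 on day 3. Without the SNHG26 library of day 3 its difference was -0.03. This was the narrowest interval of the 6. NDN differed by 0.54 (SE 0.32, interval -0.33 to 1.42, limma adjusted p = 0.935), with 0.17 on day 2 and 0.91 on day 3. The exact two-sided permutation test gave 0.333 for NDN, the smallest p that 2 libraries against 2 allow. Without the SNHG26 library of day 3 the difference was 0.29. The fibroblast markers with a value, COL1A1 and COL1A2, summed to 7.95 and 7.99 TPM with the SNHG26 guides and to 10.7 and 11.9 TPM with control guides. COL1A1 overlapped between the arms, at 4.16 and 2.98 TPM with the SNHG26 guides and 3.21 and 4.21 TPM with control guides. COL1A2 stood at 3.79 and 5.01 TPM with the SNHG26 guides and at 7.47 and 7.72 TPM with control guides. The part of these genes in the NDN result was not tested.

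PEG10 differed by -0.39 (SE 0.42, interval -1.53 to 0.75, limma adjusted p = 0.948), at -0.47 on day 2 and -0.32 on day 3. It was the one member with a negative difference. Leaving out single libraries moved it from -0.73, without the control library of day 3, to -0.06, without the control library of day 2. MEST differed by 0.07 (SE 0.28, interval -0.69 to 0.82), with -0.22 on day 2 and 0.35 on day 3, and turned to -0.08 without the SNHG26 library or the control library of day 3. GNAS differed by 0.10 (SE 0.48, interval -1.23 to 1.43), with 0.45 on day 2 and -0.25 on day 3. It turned to -0.10 without the SNHG26 library of day 3 and to -0.45 without the control library of day 2. The fitted difference of NNAT, 1.40 (SE 1.16), rests on 2 reads in 1 library and was 0 without it.

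**Figure D3:**
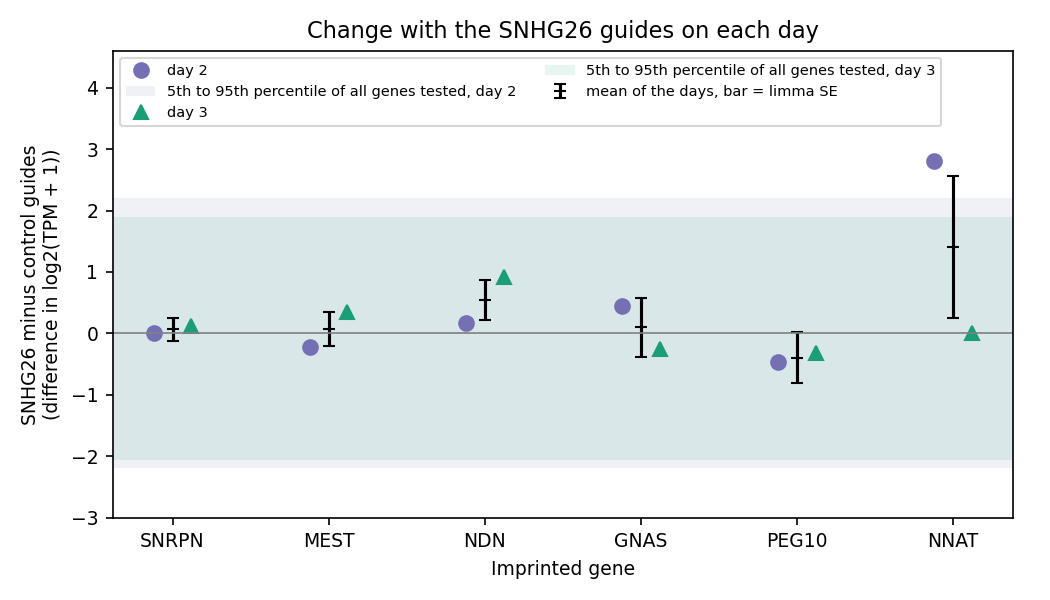
The y axis is the difference in log2(TPM + 1), SNHG26 minus control guides, for each imprinted gene on day 2 (circles) and day 3 (triangles), with the mean of the days and its limma SE in black; shaded bands hold the middle 90% of all 8274 genes tested on each day. Each point except that of NNAT on day 2, at 2.80 from 2 reads, lies inside the bands.

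Whether the guides acted differently on the 2 days was asked with a contrast that sets each arm's day 2 library with the other arm's day 3 library, and takes its spread within those pairs. It called 0.0967% of all genes tested and 0 of the 6 imprinted genes, with limma adjusted p-values of at least 0.961. The difference between day 3 and day 2 in the guide change was 0.74 for NDN (SE 0.74), -0.70 for GNAS (SE 0.91) and 0.58 for MEST (SE 0.47). Each pair holds both guides and both days, so differences between the guides and between the days enter this spread, and a miss here says little.

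Between day 2 and day 3 of doxycycline, SNRPN and GNAS were higher on day 3 without overlap and PEG10 was lower, so 3 of the 6 did not overlap, against 35.5% of all genes tested. None passed the limma test, which called 0.0363% of all genes, and 0 had an unadjusted p under 0.05, against 6.61%. GNAS had the smallest p of the 6, with a mean of 11.5 ± 2.72 TPM on day 2 and 19.8 ± 2.53 TPM on day 3 (SD, n = 2). Its log2 difference of 0.75 (SE 0.29, interval -0.06 to 1.56) had a limma adjusted p of 0.760 and an unadjusted p of 0.0617, and was positive in both arms, at 0.40 with the SNHG26 guides and 1.10 with control guides. PEG10 fell short of the threshold at -0.60 (SE 0.32, limma adjusted p = 0.760), with -0.53 and -0.67 in the arms. Its day difference was -0.83 without the SNHG26 library of day 2 and -0.37 without the control library of day 2. SNRPN differed by 0.14 (SE 0.15), by 0.08 without the SNHG26 library of day 3 and by 0.20 without the control library of day 3. MEST differed by -0.0047 (SE 0.25), and its sign depends on scaling. NDN differed by 0.13 (SE 0.40), and by -0.33 without the SNHG26 library of day 3.

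The wider set held 86 other names from the same clusters and further loci, some of them imprinted in certain tissues only or listed as neighbours of an imprinted gene. Of these, 52 were listed, 42 had a value and 19 reached the filter. With the guides, 9 of the 19 had a positive and 10 a negative difference, with a median of -0.11, beside 4407 positive, 3867 negative and a median of 0.04 over all genes tested, and 0 passed the limma test. In the day comparison 9 were positive and 10 negative, and 0 passed. An unadjusted p under 0.05 was found for 1 of the 19 with the guides, against 4.07% of all genes tested, and for 2 of the 19 between the days, against 6.61%. The latter were NLRP2, lower on day 3, and TFPI2, a protease inhibitor, higher on day 3 at a limma adjusted p of 0.737. TFPI2, named after its values were seen, was listed at 0 in both day 2 libraries. On day 3 it had at most 1.25 reads with the SNHG26 guides and 5.19 with control guides. It reached the filter only through the day 3 libraries, so its p supports nothing. The one with the guides, also named after its values were seen, was NAP1L5, an intronless gene inside HERC3, which had 0 reads in both SNHG26 libraries and 3 and 1 reads in the control libraries (limma adjusted p = 0.829). It reached the filter only through the control libraries, so its p supports nothing. Of IGF2 and DLK1, growth regulators at 2 of the best known clusters, IGF2 reached at most 1.75 TPM and DLK1 was listed at 0. UBE3A, the Angelman syndrome ubiquitin ligase, was listed at 0.168 TPM in 1 library and at 0 in the others.

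On chromosome 15, SNHG14 had 165.9 TPM (day 2) and 78.0 TPM (day 3) in the SNHG26 arm, and 178.6 and 176.5 TPM in the control arm. With the median span of the 26 GENCODE transcripts these values stand for 222 to 488 reads, and on the shortest for 6.10 to 13.4. By TPM, the day 3 library of the SNHG26 arm was apart from the other 3. The difference between the arms was -0.64 (SE 0.41, limma adjusted p = 0.935), from -0.11 on day 2 and -1.17 on day 3. SNRPN, upstream on the same strand, was at its highest in that library, 176.1 TPM. PWAR5, a transcript inside SNHG14, had 5 and 7 reads with the SNHG26 guides and 9 and 4 with control guides. MAGEL2, a MAGE gene next to NDN, had 1, 0, 0 and 2 reads in the same order.

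CDKN1C, the maternally expressed cell cycle inhibitor of chromosome 11, was listed at 3.38 and 14.4 TPM with the SNHG26 guides and at 0 and 5.78 TPM with control guides, on at most 5.65 reads in any library. VTRNA2-1, a short vault-like RNA whose imprinting varies between people, had 7 and 4 reads with the SNHG26 guides and 2 and 3 with control guides. They were worth 398.7, 204.1, 125.5 and 157.4 TPM on a span of 128 bases. The libraries were made from poly(A) RNA, and whether the reads on VTRNA2-1 came from the short RNA itself was not tested. Its arms did not overlap, and neither did those of 29.2% of all genes tested. Among the 19 other imprinted genes tested, 4 were higher and 3 were lower without overlap with the SNHG26 guides. The difference of VTRNA2-1, 1.02 (SE 0.39), had a limma adjusted p of 0.935. NLRP2, a gene of the maternal egg complex, stood at 80.9 and 43.8 TPM with the SNHG26 guides and at 82.8 and 52.7 TPM with control guides. It was lower on day 3 in both arms, by a log2 difference of -0.75 (SE 0.19, limma adjusted p = 0.581). BLCAP, SNU13, DGCR6L, HM13 and NAP1L4 had means from 9.27 to 78.0 TPM and limma adjusted p-values of at least 0.935 between the arms.

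**Figure D4:**
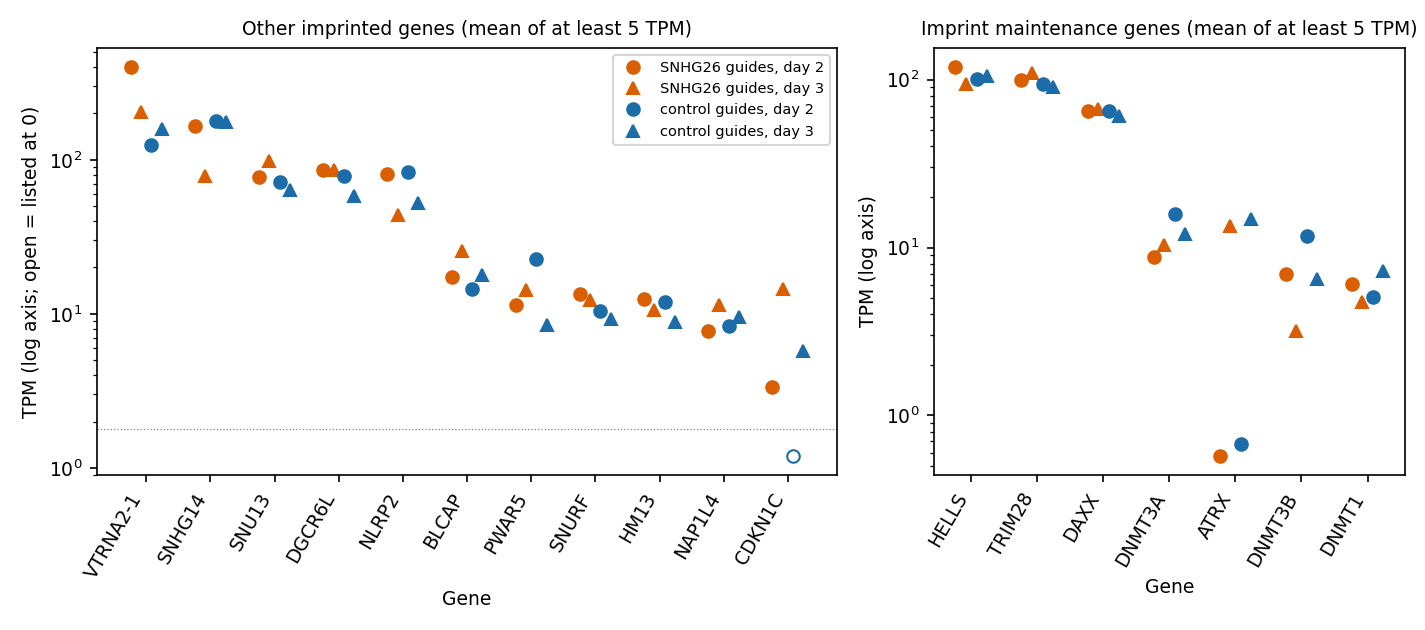
TPM on log axes for the other imprinted genes (left) and the imprint maintenance genes (right) with a mean of at least 5 TPM, 1 point per library, with colours for the guides and shapes for the days; the open point of CDKN1C is listed at 0. SNHG14 in the SNHG26 library of day 3 stands at 78.0 TPM against 165.9 to 178.6 in the others, and ATRX stands higher on day 3 in both arms.

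Of 20 genes that keep or read imprints, 16 were listed, 15 had a value and 10 reached the filter. With the guides, 5 had a positive and 5 a negative difference, with a median of -0.03, and 0 passed the limma test. The arms did not overlap for 3 of the 10, against 29.2% of all genes tested: TRIM28 and DAXX were higher and DNMT3A was lower with the SNHG26 guides. TRIM28, the corepressor brought in by ZFP57, ran from 90.7 to 109.8 TPM, with a difference of 0.18 (SE 0.19). DAXX, a histone chaperone, ran from 60.7 to 66.6 TPM, and HELLS, a chromatin remodeller that supports DNA methylation, from 94.5 to 118.6 TPM. The methyltransferase DNMT1 ran from 4.77 to 7.28 TPM. DNMT3A, a de novo methyltransferase, had 8.76 and 10.3 TPM with the SNHG26 guides and 15.8 and 12.1 with control guides. DNMT3B, another, had 6.92 and 3.17 TPM against 11.7 and 6.52, with overlap, and both had a limma adjusted p of 0.935. ZFP57 was listed at 0.753 TPM and 0.926 TPM in 1 library of each arm and at 0 in the others, and ZNF445, a second imprint-binding zinc finger, at 0.175 to 0.710 TPM.

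ATRX, the partner of DAXX, was listed at 0.575 TPM on day 2 and 13.4 TPM on day 3 with the SNHG26 guides, and at 0.672 and 14.8 TPM with control guides. Both arms thus had a high day 3 value. The difference of 3.22 (SE 0.29) had a limma adjusted p of 0.119 and an unadjusted p of 4.5e-04. An unadjusted p under 0.05 was found for 6.61% of all genes tested. ATRX did not pass. It reached the filter only through the day 3 libraries, so its p supports nothing. The symbol covers 24 GENCODE transcripts of unequal span, and which of them were read is not given in the sources used here. On the full span the day 3 values allow at most 577 reads with the SNHG26 guides and 621 with control guides. With the median transcript span they stand for 37.6 and 40.5 reads, and with the shortest for 0.79 and 0.85. The day 2 values stand, on the median span, for 1.44 reads with the SNHG26 guides and 1.53 with control guides.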

How the data were processed

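The deposited table holds TPM per gene, with 1 column for each library, per the file header. Alignment used minimap2 2.24-r1122 and build GRCh38, per the submitters' processing notes; the counting tool, annotation and any filter are not given in the sources used here. Reads were recovered as the TPM times the listed span over the value of 1 read, taken from the most frequent product in each library. Whole reads in every library (within 1e-04 read) were found for 2853 genes, 20.6% of those with a value. They were also found for 92.1% of 38 spliced genes that have 1 transcript in GENCODE release 29 at the listed coordinates, and for 0% of them over the spliced length, so the TPM divide by a span with introns. For other genes the full span gives an upper bound of reads.

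Libraries were grouped by the guides in the labels, 2 per arm. Genes averaging 1 TPM or more were fitted with limma 3.58.1 in R 4.3.3 on log2(TPM + 1), with a mean-variance trend and Benjamini-Hochberg adjustment at 0.05. The pseudocount understates changes of low genes. The fit was tested on simulated data, where it recovered changed genes and also called some unchanged ones. The changes were planted only in genes with many reads, and the simulated libraries differed otherwise by counting error alone. The simulation therefore does not show how the fit does for genes with few reads, such as NDN and NNAT. Library numbers across arms mark the same day of doxycycline; across 8274 genes, the departures of such libraries from the mean of their arm correlated at 0.0464. The named genes are the 6 with a value, and of the other lists those averaging 5 TPM or more; genes named below that level (NAP1L5, TFPI2, IGF2, DLK1, UBE3A, MESTIT1, MAGEL2, ZFP57, ZNF445 and cell type markers) were chosen after their values were seen. The members and lists were chosen with earlier results of these data known. Intervals and limits for a count of 0 (3 reads) cover counting error only, since no molecular identifiers are described.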

Additional observations from a re-analysis of the deposited data

How the results depend on the processing

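The alternatives were a pseudocount of 0.1 or 5, a filter at a mean of 5 TPM or none at all, median ratio scaling, quantile normalization, no trend, the replicate block (day for the guides, arm for the days) and leaving out each library; summing SNRPN with SNURF was chosen after seeing the data. Of 186 values of the 6 genes under these, 173 kept the direction, 13 did not and 0 passed the threshold. With no library left out, the lowest limma adjusted p was 0.626, for GNAS between the days with the filter at 5 TPM. A changed filter, no trend and the replicate block cannot move a fitted difference in this design, so their values kept the direction by construction. The day difference of MEST became 0.00355 under median ratio scaling and 0.0054 under quantile normalization, which also took the crossed contrast of SNRPN to -0.0443. Leaving out 1 library, the guide differences ran from -0.0811 to 0.213 for MEST, -0.45 to 0.65 for GNAS, -0.0321 to 0.163 for SNRPN and 0 to 2.80 for NNAT, and the day differences from -0.18 to 0.17 for MEST, -0.33 to 0.58 for NDN and -2.80 to 0 for NNAT. The genes called between the guides stayed at 0. The 3 called between the days became 0 with either pseudocount, no filter, quantile normalization, no trend or the replicate block, and from 0 to 0 with a library left out; the cause was not tested. The replicate block changed no call of the 6 genes. With a library left out, the lone library of an arm was assumed to vary like the other. NDN and NNAT had 8 reads or fewer per library, and for the other 4 genes only upper bounds of reads are known.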

Other observations

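The SNORD116 small nucleolar RNAs, made from SNHG14 introns in the Prader-Willi region, were looked at after their values had been seen. Of this repeated family 11 copies were listed, all with a value and all in whole reads. Reads on these copies summed to 17 on day 2 and 20 on day 3 with the SNHG26 guides, and to 15 and 26 with control guides. The libraries were made from poly(A) RNA, and whether these reads came from the small RNAs themselves was not tested. SNORD116-2 (chromosome 15, 25054210 to 25054304) had 8, 16, 6 and 9 reads in that order, and SNORD116-29 (25106521 to 25106603) had 4, 3, 6 and 11. The copies are much alike, and reads of alike copies cannot be told apart.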
